A study of Xenopus tropicalis with 15 samples.

Results

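Matrix metalloproteinases (MMPs), ADAM and ADAMTS proteases and the TIMP inhibitors were followed through the first day of tail regeneration in tadpoles of the frog Xenopus tropicalis. The members were all gene models whose symbol begins with mmp or adam and a number, with adamts, or with timp and a number. They came to 63 of 34192 gene models, namely 22 MMP, 14 ADAM, 19 ADAMTS, 6 ADAMTS-like and 2 TIMP models. This rule reads the symbols and no measured value, but it was chosen with earlier results of these data known. Other genes of these families whose names take another form, such as placeholder names, were not counted.

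Total RNA of wild-type tadpole tails was sequenced in 15 libraries, 3 in each of 5 groups. The posterior part of the tail was removed at Nieuwkoop and Faber stage 41, at 3 days after fertilisation, in animals reared at 23 °C. The regenerating tissue, about 250 µm long, was taken 24 hours post amputation (hpa) from tadpoles kept in 5 µM 2-methoxyestradiol (2ME), in 0.5 µM echinomycin, in 10 µM IWR-1 or in 0.1% DMSO. The remaining group, called 0 hpa, was untreated tissue of the same length just in front of the cut, taken at amputation. All tails were therefore cut, and the DMSO group differs from the 0 hpa group in solvent, in time and in where along the tail the tissue lay, which cannot be told apart. The treatment field of the IWR libraries counts up with the replicate, but only IWR-1 is named in the design, and the 3 libraries were read as one compound. The labels do not say whether a library holds one or several animals, so a p-value covers no more than the spread between libraries.

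2ME is a metabolite of oestradiol that binds tubulin and lowers the protein of the hypoxia factor HIF1A, and echinomycin is an antibiotic that binds DNA and keeps HIF1 from its sites. IWR-1 inhibits tankyrase, which stabilises Axin and lowers Wnt signalling. MMPs are zinc proteases, made as inactive proenzymes, that cut collagens and other matrix proteins. ADAMs are membrane-bound relatives that release the outer parts of growth factors and receptors, and ADAMTS proteases are secreted and process procollagens, proteoglycans and fibrillin. TIMPs bind the active site of these enzymes. In amphibian appendages, MMPs are known for early induction at the wound, and MMP activity is required for limb regeneration in newts.

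Levels are given as CPM, the count as a share of the library's counts, with scaling between libraries by trimmed means (TMM). TPM divides by transcript length and scales every library to one total. It is used where genes are compared within a group and for sums over a class. The libraries held between 17297773 and 23377789 estimated counts, and log2 CPM over all tested models correlated at 0.984 to 0.990 between replicates of a group. Of the 63 members, 58 passed the filter on low counts: 21 MMP, 12 ADAM, all 19 ADAMTS, 4 ADAMTS-like and both TIMP models. The 5 that did not pass were mmp20, an enamel protease in mammals, with at most 4 counts in a group, adam28.4 with none in any library, both adamtsl2 models, and adam28.3. One adamtsl2 model was at 0 throughout, and the other held 30 counts with IWR-1 and 3 with DMSO, a ratio of 9.02 with a counting interval from 2.81 to 46.2. For adam28.3 the DMSO group held 21 counts and the 0 hpa group 0, at least 5.86-fold higher with DMSO when the 0 hpa group as a whole is set at 3 counts.

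Markers of cell types found in tails were detected in every group, and their levels differed between groups. Over 12 muscle markers the summed level was 1910 to 3136 CPM with 2ME, 4362 to 5307 CPM with echinomycin, 3896 to 4418 CPM with IWR-1, 1380 to 1842 CPM with DMSO and 19410 to 21530 CPM at 0 hpa. Over 13 leukocyte markers it was 205.9 to 222.6 CPM with 2ME, 478.8 to 584.3 CPM with echinomycin, 368.6 to 401.5 CPM with IWR-1, 341.4 to 363.9 CPM with DMSO and 110.2 to 122.6 CPM at 0 hpa; of these lyz, for lysozyme, reached at most 0.32 CPM in a group mean. Over 7 notochord markers the sum was 2353 to 2647 CPM with 2ME, 5725 to 7082 CPM with echinomycin, 2661 to 2722 CPM with IWR-1, 2875 to 3153 CPM with DMSO and 4411 to 4677 CPM at 0 hpa. The collagen gene col2a1 was the largest part of this sum, at a mean of 1551 CPM with DMSO and 3797 CPM at 0 hpa. The keratin gene krt8.1, also among the epidermal markers, went the other way, at 1218 CPM with DMSO and 328 CPM at 0 hpa. In these bulk samples fewer cells of a type and less RNA per cell cannot be told apart.

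At 24 hpa and at 0 hpa the MMPs were the most abundant of these families. Summed over the 22 MMP models, the level was 1284 ± 37.1 TPM with 2ME, 1109 ± 57.9 TPM with echinomycin, 1726 ± 407 TPM with IWR-1, 1206 ± 91.7 TPM with DMSO and 253 ± 23.8 TPM at 0 hpa (SD, n = 3 each). The ADAM models together reached 88.3 ± 12.7 TPM with DMSO and 102 ± 13.5 TPM at 0 hpa, and the ADAMTS models 55.0 ± 4.21 TPM with DMSO and 87.3 ± 14.4 TPM at 0 hpa. Both TIMP models together had 12.3 ± 1.17 TPM with DMSO and 25.9 ± 8.08 TPM at 0 hpa. The DMSO and 0 hpa libraries overlapped in the ADAM sum and did not overlap in the MMP, ADAMTS, ADAMTS-like and TIMP sums. With DMSO the MMP sum was higher, and the ADAMTS, ADAMTS-like and TIMP sums were lower. These TPM sums are shares of each library's total and carry no TMM scaling between libraries.

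The genes that made up the MMP sum also differed. With DMSO, mmp1 supplied 35.4 ± 1.04% of it and mmp13l 21.4 ± 1.93%, whereas at 0 hpa these supplied 3.80 ± 0.192% and 0.0605 ± 0.0297%. At 0 hpa the stromelysin gene mmp3 led with 33.8 ± 0.724%, followed by mmp14 with 19.4 ± 0.716% and mmp2 with 12.5 ± 0.931%. The matrilysin gene mmp7 kept a like share, 11.0 ± 1.00% with DMSO and 9.14 ± 1.49% at 0 hpa. The sum with DMSO was thus mostly that of 2 collagenase-type genes, and the sum at 0 hpa mostly that of a stromelysin, a membrane-bound MMP and a gelatinase.

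**Figure D1:**
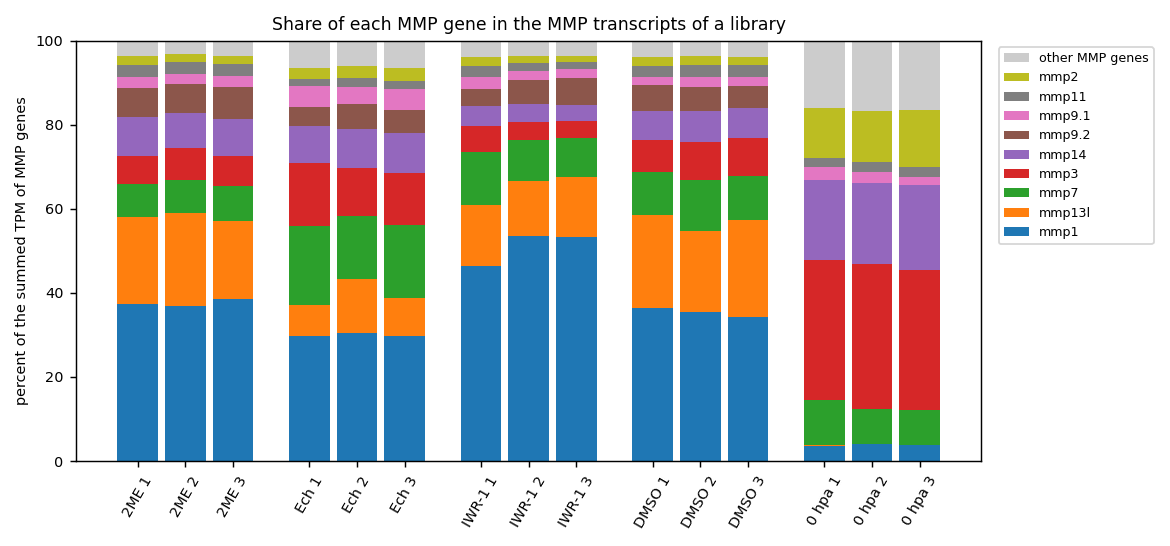
Share of the summed MMP level (TPM) held by each MMP gene, in percent, with 1 bar per library. mmp1 and mmp13l take on average 35.4% and 21.4% of the bars with DMSO and 3.80% and 0.0605% of those at 0 hpa, where mmp3 and mmp14 are widest.

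The first comparison asked what differed between regenerating tissue at 24 hpa with DMSO and tail tissue at 0 hpa. Of the 58 tested members 15 were higher, 32 lower and 11 did not pass the test (edgeR quasi-likelihood, Benjamini-Hochberg adjusted p under 0.05 over 18823 models), while 63.0% of all tested models passed it. By direction, 32.2% of all models were higher and 30.8% lower, against 15 and 32 of 58 members. The 3 libraries of each group did not overlap in 45 of the 58, and in 66.8% of all models. By class, 12 of 21 MMPs were higher and 8 lower, 2 of 12 ADAMs higher and 7 lower, 1 of 19 ADAMTS genes higher and 12 lower, and 3 of 4 ADAMTS-like genes and both TIMPs lower. The median log2 ratio of the members was -0.36, beside 0.00 over all models.

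Collagenases open the triple helix of fibrillar collagens, and their rises differed widely in size. Of the tested members with counts in both groups, mmp13l had the largest log2 ratio. For mmp13l the DMSO libraries had 436, 354 and 403 CPM and the 0 hpa libraries 0.318, 0.106 and 0.243 CPM. The DMSO libraries stood far above the 0 hpa libraries, which were all below 1 CPM, and the fitted log2 ratio was 10.81 ± 0.33 (SE; adjusted p = 1.79e-13, edgeR). For mmp1, which the reference table lists as a synonym of mmp18 and of a Xenopus collagenase, the DMSO libraries had 582, 526 and 487 CPM and the 0 hpa libraries 10.9, 12.3 and 10.9 CPM, a log2 ratio of 5.54 ± 0.17 (adjusted p = 1.79e-13). It was the most abundant MMP with DMSO, and all its 0 hpa libraries lay above those of mmp13l, which held 11 counts over that group. For mmp13 the DMSO libraries had 24.0, 21.3 and 15.4 CPM and the 0 hpa libraries 2.29, 1.86 and 1.03 CPM, a log2 ratio of 3.54 ± 0.24 (adjusted p = 1.68e-09). The neutrophil collagenase gene of mammals, mmp8, had 9.72, 9.24 and 14.6 CPM with DMSO and no count in any 0 hpa library. Its 691 counts with DMSO set it at least 193-fold higher there, when the 0 hpa group as a whole is set at 3 counts.

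Gelatinases cut denatured and basement membrane collagen. The frog carries 2 mmp9 genes next to each other. For mmp9.2 the DMSO libraries had 234, 209 and 174 CPM and the 0 hpa libraries 0.573, 0.212 and 0.791 CPM, a log2 ratio of 8.64 ± 0.39 (adjusted p = 1.37e-11). For mmp9.1 the DMSO libraries had 57.9, 63.1 and 57.8 CPM and the 0 hpa libraries 17.1, 14.1 and 9.80 CPM, a log2 ratio of 2.12 ± 0.14 (adjusted p = 7.28e-10). Both rose, and at 0 hpa mmp9.1 was the higher of the pair in every library. The other gelatinase gene, mmp2, fell slightly, with 61.4, 57.3 and 48.3 CPM with DMSO against 63.5, 66.8 and 71.3 CPM at 0 hpa (log2 ratio -0.28 ± 0.077, adjusted p = 0.00524).

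Among stromelysins and matrilysin, mmp11, the stromelysin-3 gene known from frog metamorphosis, averaged 130 ± 3.78 CPM with DMSO and 21.4 ± 1.35 CPM at 0 hpa (log2 ratio 2.60 ± 0.098, adjusted p = 1.63e-12). The secreted protease gene mmp7 averaged 92.0 ± 8.75 CPM with DMSO and 15.2 ± 2.50 CPM at 0 hpa (2.60 ± 0.11, adjusted p = 6.18e-12). In both genes each DMSO library lay above each 0 hpa library. mmp3 rose less, to 177 ± 7.42 CPM with DMSO against 139 ± 6.17 CPM at 0 hpa (0.35 ± 0.09, adjusted p = 0.00309). mmp19 rose to 9.21 ± 1.69 CPM against 2.17 ± 0.453 CPM (2.08 ± 0.22, adjusted p = 3.15e-07), and its named relative mmp19-like.2 fell to 8.70 ± 0.983 CPM against 19.4 ± 1.38 CPM (-1.16 ± 0.13, adjusted p = 9.96e-07).

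Membrane-bound MMPs act at the cell surface, and MMP14 together with TIMP2 activates pro-MMP2 in mammals. mmp14 had 325, 324 and 300 CPM with DMSO and 166, 174 and 175 CPM at 0 hpa, a log2 ratio of 0.88 ± 0.059 (adjusted p = 1.27e-09). The GPI-anchored type split: mmp17 fell to 3.93, 3.85 and 4.75 CPM with DMSO, against 14.2, 18.4 and 18.7 CPM at 0 hpa (-2.03 ± 0.16, adjusted p = 1.14e-08), and mmp25 rose by 0.62 on the log2 scale with overlapping libraries (adjusted p = 0.0394). Of the remaining MMPs of any type, mmp15, mmp24, mmp21, mmp23b and mmp28 fell, with log2 ratios of -0.32, -0.87, -1.07, -1.72 and -0.71. The libraries of mmp15 overlapped, with 16.91 CPM in DMSO replicate 1 and 16.86 CPM in 0 hpa replicate 3. For mmp21 the 0 hpa libraries had 11.9, 5.46 and 5.90 CPM and the DMSO libraries 4.38, 2.74 and 3.90 CPM, so its ratio leans on 0 hpa replicate 1. mmp16 was the MMP that did not pass the test, at 3.82 ± 0.344 CPM with DMSO and 3.63 ± 0.306 CPM at 0 hpa.

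**Figure D2:**
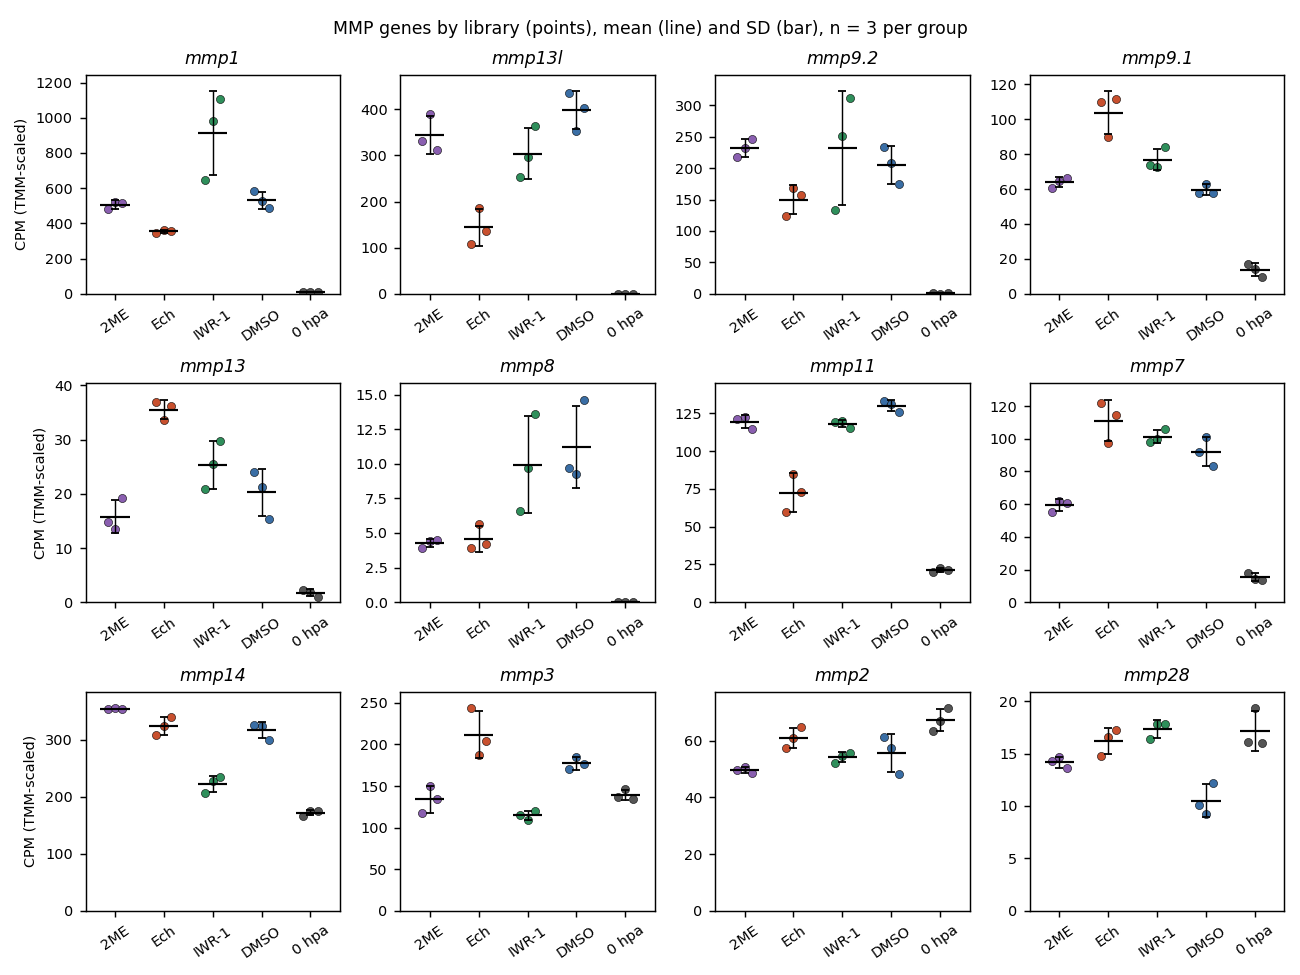
Level (TMM-scaled CPM) of MMP genes in each library (points), with group mean (line) and SD (bar), n = 3 per group; each panel has its own axis from 0. mmp13l, mmp9.2 and mmp8 lie at or near 0 at 0 hpa, and mmp1 is highest with IWR-1.

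Both inhibitor genes fell while the collagenases rose. For timp3, whose protein stays bound to the matrix and in mammals inhibits ADAM17 and aggrecanases as well as MMPs, the DMSO libraries had 10.7, 9.48 and 14.0 CPM and the 0 hpa libraries 24.1, 36.3 and 22.0 CPM, a log2 ratio of -1.27 ± 0.20 (adjusted p = 2.58e-05). For timp2 the DMSO libraries had 12.3, 13.0 and 10.4 CPM and the 0 hpa libraries 15.5, 22.3 and 17.8 CPM, a log2 ratio of -0.65 ± 0.19 (adjusted p = 0.00716). The groups did not overlap in either gene.

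Of the ADAMs with proteolytic roles, adam9 rose to 70.3, 70.7 and 72.7 CPM with DMSO, against 27.4, 30.9 and 29.1 CPM at 0 hpa (1.29 ± 0.093, adjusted p = 3.21e-09). The other riser was adam28.2, a member of a family known in mammals from lymphocytes, with 4.42 ± 0.228 CPM with DMSO and 1.17 ± 0.285 CPM at 0 hpa (1.91 ± 0.27, adjusted p = 9.58e-06). adam10, the main Notch sheddase, fell a little, to 106 ± 8.61 CPM with DMSO against 133 ± 9.57 CPM at 0 hpa (-0.32 ± 0.067, adjusted p = 0.000447). adam17, which frees TNF and EGF receptor ligands, had 64.7 ± 3.70 CPM with DMSO and 64.8 ± 0.983 CPM at 0 hpa, and the 95% interval of its log2 ratio ran from -0.12 to 0.12. The largest falls were of adam12, which mammalian muscle makes as it forms and regenerates, to 0.181 ± 0.0542 CPM with DMSO against 2.20 ± 0.315 CPM at 0 hpa (-3.57 ± 0.40), of adam19 (-2.62 ± 0.35) and of adam22, an ADAM without protease activity that binds LGI1 in mammalian brain (-2.55 ± 0.37). adam33, listed as adam13 and known from Xenopus neural crest migration, fell by 0.31 on the log2 scale.

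ADAMTS genes mostly fell. Among procollagen N-proteinases, which trim fibrillar collagen, adamts2 fell to 3.86 ± 0.345 CPM with DMSO against 14.1 ± 1.25 CPM at 0 hpa (-1.87 ± 0.14, adjusted p = 5.44e-09), and adamts3 and adamts14 fell with log2 ratios of -0.64 and -0.99. adamts7 and adamts12, which in mammals cut the cartilage protein COMP, fell together: adamts7 had 41.5, 41.3 and 37.2 CPM with DMSO against 106, 116 and 99.0 CPM at 0 hpa (-1.42 ± 0.12, adjusted p = 2.37e-08), and adamts12 had a log2 ratio of -1.74 ± 0.19. Proteoglycan-cutting members went different ways. adamts15 rose to 3.20, 3.22 and 3.32 CPM with DMSO, against 0.127, 0.159 and 0.183 CPM at 0 hpa (4.32 ± 0.47, adjusted p = 4.27e-07), while its chromosomal neighbour adamts8 fell to 0.0978 ± 0.0822 CPM against 0.631 ± 0.0612 CPM (-2.60 ± 0.64, adjusted p = 0.00207). adamts5 and adamts1 fell, with log2 ratios of -2.04 and -0.28. adamts4 and adamts9 did not pass the test, with adjusted p of 0.0505 and 0.723. The adjusted p of adamts4 fell under 0.05 in 11 of 25 alternatives, counting those with a library left out. Among them were the fits without DMSO replicate 1 (log2 ratio -0.80, adjusted p = 0.0237), 2ME replicate 1 (-0.60, 0.0419), echinomycin replicate 1 (-0.62, 0.0115) or echinomycin replicate 2 (-0.60, 0.0476), and DESeq2 (-0.63, 0.0426). adamts16 and adamts19 fell, with log2 ratios of -2.19 and -2.53.

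**Figure D3:**
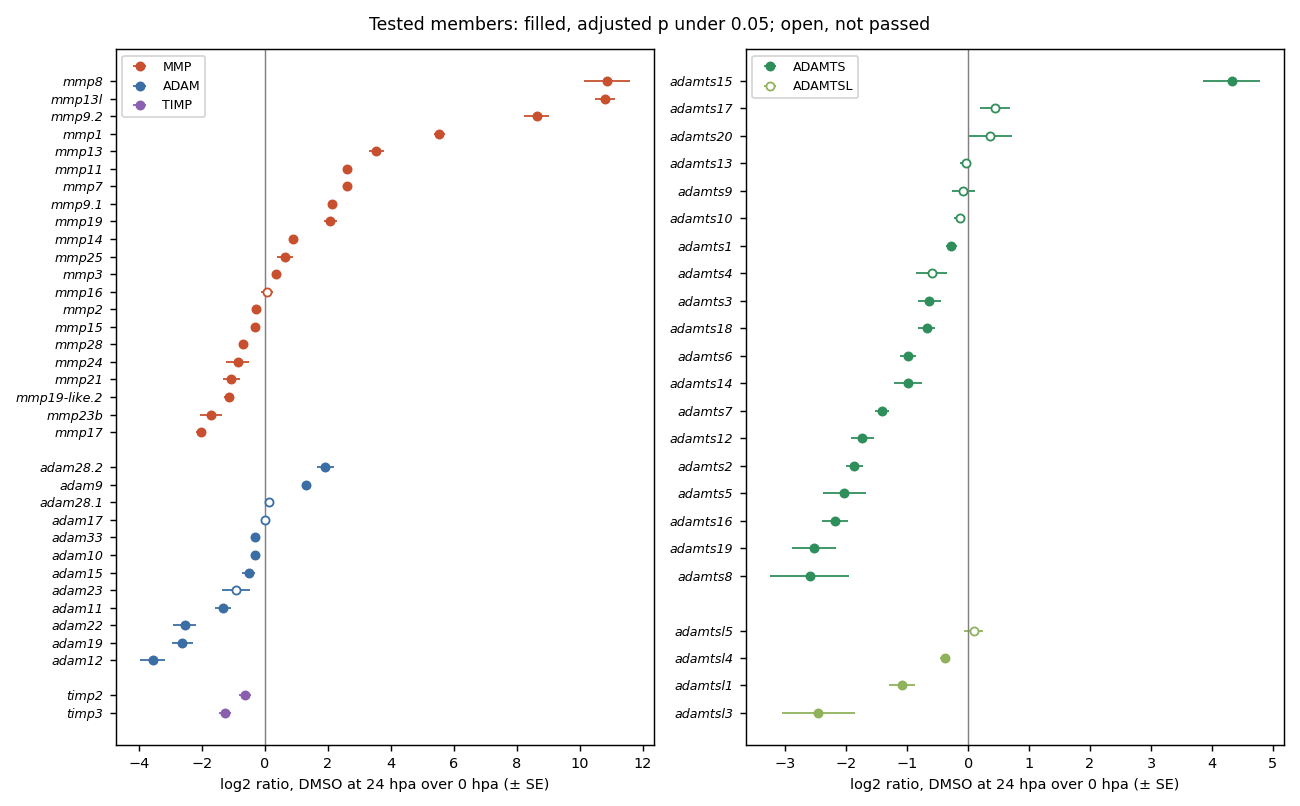
Log2 ratio of DMSO at 24 hpa over 0 hpa for each of the 58 tested members, with its SE as a bar, ordered within class, MMP, ADAM and TIMP genes left and ADAMTS and ADAMTS-like genes right on another scale; filled points passed an adjusted p under 0.05. The rises above 5 are MMPs, ADAMTS genes lie mostly below 0, and the point of mmp8 depends on a prior count because its 0 hpa libraries are at 0.

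Beside these differences, all 12 tested leukocyte markers were higher and all 12 muscle markers lower with DMSO than at 0 hpa, with median log2 ratios of 1.72 and -3.52, and all 8 endothelial, all 8 erythroid and all 5 melanophore markers were lower, with medians of -1.95, -4.91 and -3.75. The summed erythroid level ran from 243.3 to 315 CPM with DMSO and from 3336 to 14000 CPM at 0 hpa. Of 7 tested epidermal markers 5 were higher and 2 lower with DMSO. The summed epidermal level was 5076 to 5285 CPM with DMSO and 2681 to 2800 CPM at 0 hpa. Of 7 notochord markers 4 were higher and 3 lower, and of 6 neural tube markers 3 were lower and none higher. The part of leukocytes in the rises of mmp8, mmp9.1, mmp9.2 and adam28.2, and of muscle in the falls of adam12, adam19 and mmp17, was not tested. The 29 called members that the naming rule picked for this comparison kept their calls under each alternative that tested them and with each library left out. Counting the fits with a library left out, mmp13l, mmp8, adamts15, adam12 and adam22 were tested in 24 alternatives and the others in 25. For other members named here, such as mmp25 and adamts8, the calls under alternatives are not given.

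Genes around the proteases, from lists of known partners, were examined in the same fit. Of 16 tested activators, inhibitors and partners of MMPs 8 were higher and 6 lower with DMSO than at 0 hpa, where 32.2% of all models were higher and 30.8% lower. The serine protease inhibitor gene serpine2 rose to 63.4 CPM with DMSO against 7.21 CPM at 0 hpa (3.14 ± 0.12, adjusted p = 1.61e-12). plat, which encodes tissue plasminogen activator, had 28.8 CPM with DMSO and 9.56 CPM at 0 hpa (1.59 ± 0.14), and the hyaluronan receptor gene cd44, a docking site for MMP9 in mammals, fell to 14.8 CPM with DMSO against 64.6 CPM at 0 hpa (-2.13 ± 0.15). Of 20 matrix substrates 5 were higher and 15 lower. fn1, for fibronectin, rose by 4.06 ± 0.12 on the log2 scale, while col3a1 fell by 3.05 ± 0.12. Of 21 AP-1, ETS and inflammatory regulators, whose kinds control MMP promoters in mammals, 18 were higher and 1 lower. They included junb, with 569 CPM with DMSO and 111 CPM at 0 hpa (2.35 ± 0.12), ets2 (2.08 ± 0.055) and socs3 (3.19 ± 0.10). Of 25 shed ligands and receptors 11 were higher and 10 lower, with jag1 up by 1.35 ± 0.075 and notch3 down by 0.89 ± 0.071 on the log2 scale, and of 8 partners of ADAM10 and ADAM17 1 was higher, rhbdf2, and 3 were lower.

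The compounds were each set against DMSO at 24 hpa. The 3 comparisons share the DMSO libraries, so their values are given side by side and no agreement between them is drawn. With 2ME 4 of 58 members were higher, 8 lower and 46 did not pass the test, where 30.5% of all models passed. With echinomycin 24 were higher, 6 lower and 28 did not pass, where 51.6% of all models passed. With IWR-1 22 were higher, 5 lower and 31 did not pass, where 42.3% of all models passed. By direction, 14.0% of all models were higher and 16.5% lower with 2ME, 24.6% and 27.0% with echinomycin, and 19.9% and 22.4% with IWR-1. The median log2 ratio of the members was 0.07 with 2ME, 0.27 with echinomycin and 0.21 with IWR-1, beside -0.02, 0.01 and -0.02 over all models. Libraries did not overlap in 19 members with 2ME, 27 with echinomycin and 29 with IWR-1, and in 45.2%, 57.2% and 52.2% of all models.

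**Figure D4:**
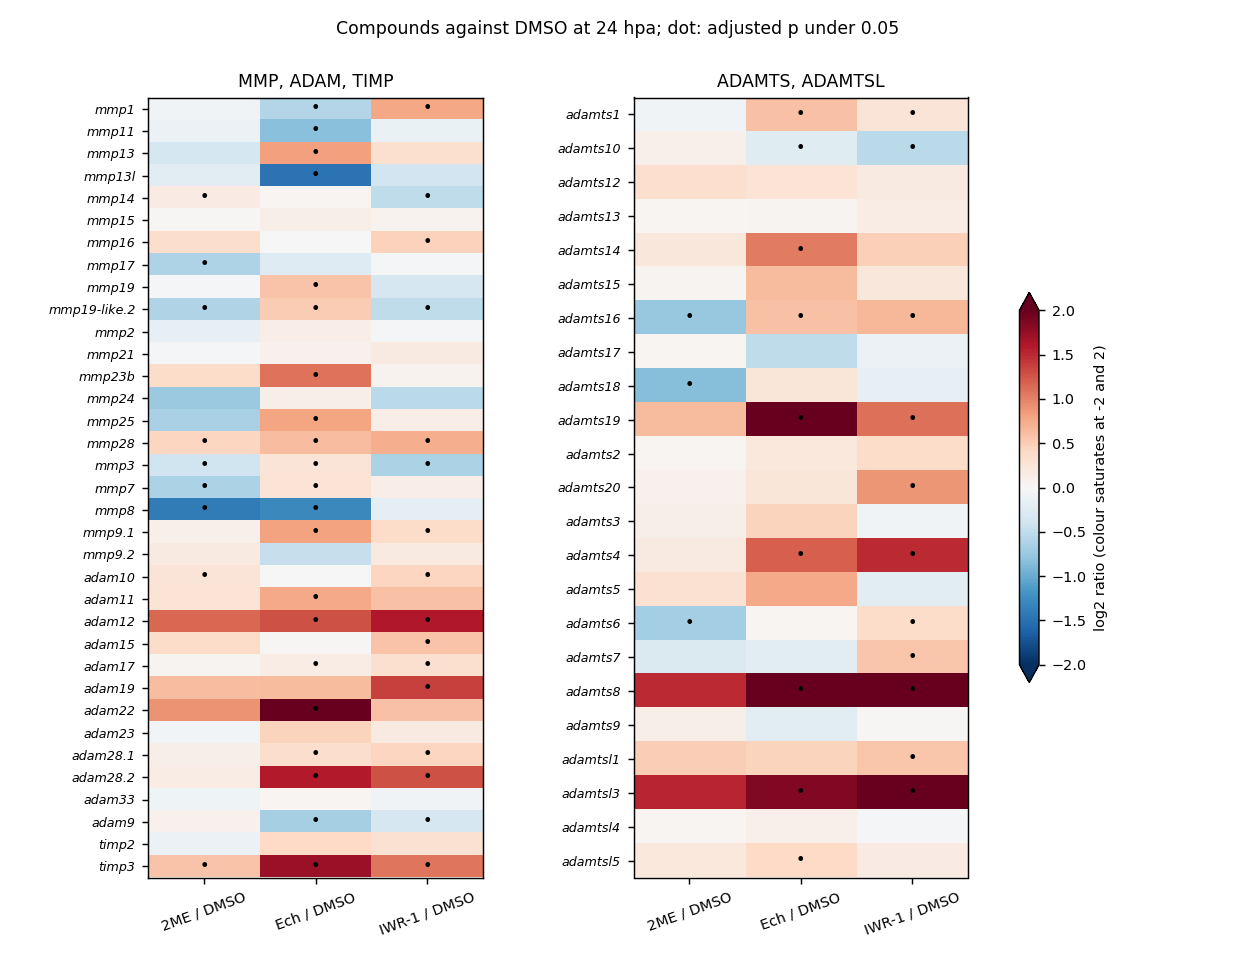
Log2 ratio of each compound over DMSO at 24 hpa for the 58 tested members; red is higher with the compound, blue lower, and a dot marks an adjusted p under 0.05. With echinomycin mmp13l, mmp8 and mmp11 are blue and timp3 is red; timp3, mmp28, mmp3, mmp19-like.2 and adamts16 carry a dot in every column, red throughout for timp3 and mmp28 and mixed in colour for the others.

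With 2ME the changes in these families were few. mmp8 had 3.93, 4.42 and 4.47 CPM with 2ME and 9.72, 9.24 and 14.6 CPM with DMSO, a log2 ratio of -1.39 ± 0.25 (adjusted p = 0.000855, edgeR). mmp7 had 55.0, 62.2 and 61.0 CPM with 2ME and 91.9, 101 and 83.4 CPM with DMSO (-0.63 ± 0.097, adjusted p = 0.000197). The libraries of the 2 groups did not overlap in either gene. mmp3 fell by 0.40 ± 0.09 (adjusted p = 0.00322) and mmp19-like.2 by 0.59 ± 0.14 (adjusted p = 0.00495) on the log2 scale. mmp17 fell to 2.73 ± 0.480 CPM with 2ME against 4.18 ± 0.498 CPM with DMSO (-0.62 ± 0.18, adjusted p = 0.0163). Its call was lost in 4 of 25 alternatives. Among them were those without DMSO replicate 3 (-0.50, adjusted p = 0.0784) or 2ME replicate 3 (-0.49, adjusted p = 0.0744), and with no scaling factor between libraries (-0.48, adjusted p = 0.0615). The leading MMPs at 24 hpa did not pass the test: mmp1 had a log2 ratio of -0.07 with a 95% interval from -0.34 to 0.20, mmp13l of -0.21 from -0.54 to 0.12 and mmp9.2 of 0.18 from -0.26 to 0.62. mmp13 (-0.35) and mmp2 (-0.17) did not pass either, and both did without DMSO replicate 3 (-0.50, adjusted p = 0.0378, and -0.25, adjusted p = 0.0151).

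Among the 19 ADAMTS genes 3 fell with 2ME and none rose, where 16.5% of all models fell and 14.0% rose. adamts18 had 19.1, 16.6 and 19.3 CPM with 2ME and 32.1, 32.8 and 34.8 CPM with DMSO (-0.86 ± 0.14, adjusted p = 0.000286). adamts6, a relative of the fibrillin-binding adamts10, had 6.95 ± 0.579 CPM with 2ME and 11.1 ± 0.436 CPM with DMSO (-0.68 ± 0.14, adjusted p = 0.00210), and adamts16 had 0.879 ± 0.330 CPM and 1.50 ± 0.0929 CPM (-0.77 ± 0.25, adjusted p = 0.0297). All of these were also lower with DMSO than at 0 hpa.

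The 4 rises with 2ME were small. adam10 rose to 127 ± 1.59 CPM with 2ME against 106 ± 8.61 CPM with DMSO (0.26 ± 0.067, adjusted p = 0.00771), and mmp28, the epilysin gene of skin and testis in mammals, to 14.2 ± 0.515 CPM against 10.5 ± 1.57 CPM (0.43 ± 0.11, adjusted p = 0.00814). timp3 had 19.3, 14.2 and 17.1 CPM with 2ME and 10.7, 9.48 and 14.0 CPM with DMSO (0.56 ± 0.20, adjusted p = 0.0398), and mmp14 had a log2 ratio of 0.16 ± 0.058 (adjusted p = 0.0452). The call of timp3 was lost without DMSO replicate 1 (0.54, adjusted p = 0.102), DMSO replicate 2 (0.46, 0.161), 2ME replicate 1 (0.46, 0.154) or 2ME replicate 3 (0.56, 0.0826). That of mmp14 was lost without DMSO replicate 2 or 3, any of the 2ME replicates, echinomycin replicate 2 or IWR-1 replicate 2, with log2 ratios of 0.14 to 0.19 and adjusted p of 0.0531 to 0.119, and with no filter on low counts (0.16, 0.074). Without 2ME replicate 1 or without DMSO replicate 2 the number of members higher with 2ME was 2 in place of 4. With no scaling factor between libraries the split of 4 higher and 8 lower became 8 and 6. The summed leukocyte markers were lower with 2ME, as given above, with 7 of 12 lower and none higher, and their part in the falls of mmp8 and mmp7 was not tested. Muscle markers were higher in 11 of 12 with 2ME, and their part in the rise of timp3 was not tested. Of 5 melanophore markers 3 were higher and none lower, and of 7 notochord markers 3 were lower and none higher. Of 6 neural tube markers 1 was higher and 3 lower, and of 7 epidermal markers 1 was higher and 2 lower. Of 8 endothelial markers 1 was lower and none higher, and none of 8 erythroid markers passed the test.

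In the lists around the proteases, where 14.0% of all models were higher and 16.5% lower with 2ME, 1 of 20 substrates was higher and 4 were lower with 2ME, among them the fibrillar collagen genes col1a1 (-0.48 ± 0.0596) and col1a2 (-0.49 ± 0.0634). Of 21 AP-1, ETS and inflammatory regulators 3 were higher and 5 lower, and the AP-1 gene fos fell to 26.0 CPM with 2ME against 156 CPM with DMSO (-2.58 ± 0.23, adjusted p = 9.41e-07). Of 25 shed ligands and receptors 8 were higher, including notch1 (0.78 ± 0.10), and 5 lower, including il6r (-2.21 ± 0.21). Of 16 activators, inhibitors and partners 2, plat and the proprotein convertase gene pcsk7, were higher and 1 was lower, and of 8 partners of ADAM10 and ADAM17 only tspan33 was called (1.00 ± 0.28).

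With echinomycin the collagenases parted. mmp13l had 108, 187 and 136 CPM with echinomycin and 436, 354 and 403 CPM with DMSO, a log2 ratio of -1.47 ± 0.16 (adjusted p = 1.59e-06). mmp8 had 3.88, 5.65 and 4.17 CPM with echinomycin and 9.72, 9.24 and 14.6 CPM with DMSO (-1.29 ± 0.25, adjusted p = 0.000497). mmp1 had 346, 360 and 355 CPM with echinomycin and 582, 526 and 487 CPM with DMSO (-0.59 ± 0.13, adjusted p = 0.00123). In these genes every echinomycin library lay below every DMSO library. In the other direction, mmp13 had 36.9, 33.5 and 36.2 CPM with echinomycin and 24.0, 21.3 and 15.4 CPM with DMSO (0.82 ± 0.17, adjusted p = 0.000729). mmp9.1 had 110, 89.6 and 112 CPM with echinomycin and 57.9, 63.1 and 57.8 CPM with DMSO (0.80 ± 0.12, adjusted p = 3.08e-05). mmp9.2 did not pass the test (-0.45 ± 0.21, adjusted p = 0.0813). Its libraries, at 124, 168 and 158 CPM with echinomycin against 234, 209 and 174 CPM with DMSO, did not overlap. It passed in 4 of 25 alternatives, among them those without IWR-1 replicate 1 (-0.46, adjusted p = 0.00683) or IWR-1 replicate 3 (-0.46, adjusted p = 0.0436), which enter the shared estimate of spread.

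mmp11 was also lower with echinomycin, at 59.8, 85.0 and 73.2 CPM against 133, 131 and 126 CPM with DMSO (-0.84 ± 0.088, adjusted p = 1.01e-06). Among the 9 MMPs that rose, mmp25 had 14.9 ± 3.74 CPM with echinomycin and 8.68 ± 2.58 CPM with DMSO (0.78 ± 0.23, adjusted p = 0.00890). mmp28, mmp19 and mmp19-like.2 rose by 0.62 ± 0.11, 0.57 ± 0.18 and 0.51 ± 0.14 on the log2 scale. mmp23b rose by 1.08 ± 0.36 on that scale, a call lost without DMSO replicate 2 (1.06, adjusted p = 0.0551) or echinomycin replicate 2 (0.93, adjusted p = 0.0718). mmp7 and mmp3 rose by 0.27 ± 0.095 and 0.26 ± 0.09. The call of mmp3 was lost without DMSO replicate 1 (0.245, adjusted p = 0.0632) or echinomycin replicate 1 (0.16, 0.114), and that of mmp7 without DMSO replicate 3 (0.22, 0.0838), echinomycin replicate 1 (0.22, 0.0819) or echinomycin replicate 3 (0.25, 0.0737). mmp14 had a log2 ratio of 0.03 with a 95% interval from -0.09 to 0.16, and mmp2 of 0.13 from -0.03 to 0.30. mmp14 passed in 2 of 25 alternatives and mmp2 in 4 of 25, for mmp2 among them that without DMSO replicate 1 (0.23, 0.0295).

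The inhibitor gene timp3 rose more than 3-fold with echinomycin. Its libraries had 32.3, 37.3 and 43.7 CPM with echinomycin and 10.7, 9.48 and 14.0 CPM with DMSO, a log2 ratio of 1.73 ± 0.19 (adjusted p = 1.90e-06), and the groups did not overlap. timp2 did not pass the test, at 15.8 ± 3.07 CPM with echinomycin and 11.9 ± 1.34 CPM with DMSO (0.41 ± 0.19, adjusted p = 0.0844). It passed in 6 of 25 alternatives, among them those without 2ME replicate 1 (0.41, 0.0362) or echinomycin replicate 1 (0.58, 0.0197).

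In the ADAM class adam9 fell, with 37.4, 49.9 and 47.8 CPM with echinomycin against 70.3, 70.7 and 72.7 CPM with DMSO (-0.66 ± 0.089, adjusted p = 1.23e-05). adam28.2 rose, with 16.7, 11.6 and 11.7 CPM with echinomycin against 4.21, 4.67 and 4.39 CPM with DMSO (1.59 ± 0.20, adjusted p = 5.73e-06), and its neighbour adam28.1 rose by 0.35 ± 0.085 on the log2 scale. adam22 had 2.05 ± 0.565 CPM with echinomycin and 0.415 ± 0.0851 CPM with DMSO (2.30 ± 0.37, adjusted p = 6.98e-05). adam11, adam12 and adam17 passed by a narrow margin, at 0.76 ± 0.26, 1.28 ± 0.47 and 0.14 ± 0.056. The call of adam11 was lost without DMSO replicate 1 (0.62, adjusted p = 0.0876), DMSO replicate 2 (0.78, 0.052), echinomycin replicate 2 (0.69, 0.0696) or echinomycin replicate 3 (0.66, 0.0808). That of adam12 was lost in 6 of 23 alternatives. Among them were those without DMSO replicate 1 (1.26, 0.0681), DMSO replicate 3 (1.11, 0.0992), echinomycin replicate 2 (0.97, 0.144) or echinomycin replicate 3 (1.12, 0.096), and DESeq2 (1.32, 0.0669). That of adam17 was lost without DMSO replicate 1 or 2, any of the 2ME replicates, echinomycin replicate 2 or 3, or IWR-1 replicate 1 or 2, with log2 ratios of 0.12 to 0.14 and adjusted p of 0.0518 to 0.149, with no filter on low counts (0.13, 0.138) and with the 2 groups alone (0.17, 0.0782). adam10 had a log2 ratio of 0.01 with a 95% interval from -0.13 to 0.15. adam19 did not pass (0.64 ± 0.39, adjusted p = 0.183), and it passed without DMSO replicate 1 (1.14, adjusted p = 0.0343).

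Among the 19 ADAMTS genes 6 rose and 1, adamts10, fell with echinomycin, where 24.6% of all models rose and 27.0% fell. adamts1, which cuts versican and aggrecan, had 73.8, 76.9 and 89.1 CPM with echinomycin and 54.3, 51.7 and 53.2 CPM with DMSO (0.59 ± 0.084, adjusted p = 2.12e-05). adamts4, an aggrecanase, had 4.44, 8.79 and 8.54 CPM with echinomycin and 3.99, 2.36 and 3.18 CPM with DMSO (1.20 ± 0.24, adjusted p = 0.000608). The first echinomycin library of adamts4 lay close to the highest DMSO library, and the other two well above. adamts14 rose by 1.04 ± 0.22 (adjusted p = 0.000810), adamts16 by 0.59 ± 0.23 (adjusted p = 0.0364), adamts19 by 2.28 ± 0.36 (adjusted p = 6.63e-05) and adamts8 by 3.30 ± 0.59 (adjusted p = 0.000208) on the log2 scale. These last genes stayed low, adamts19 at 1.61 ± 0.0833 CPM with echinomycin and 0.324 ± 0.0685 CPM with DMSO, and adamts8 at 1.02 ± 0.140 CPM and 0.0978 ± 0.0822 CPM. adamts3 and adamts5 did not pass (adjusted p = 0.0517 and 0.104). Both passed without echinomycin replicate 1 (0.63, adjusted p = 0.00931, and 1.01, adjusted p = 0.0413), and adamts3 also without 0 hpa replicate 1 or 2, DMSO replicate 1, or 2ME replicate 1 or 3, with adjusted p of 0.0372 to 0.0422. adamts3 also passed with DESeq2 (0.46, adjusted p = 0.0430) and with each other set of scaling factors, and in 15 of 25 alternatives in all.

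Beside these rises, 11 of 12 leukocyte, 12 of 12 muscle, 6 of 7 notochord (1 lower) and 7 of 8 endothelial markers were higher with echinomycin than with DMSO. All 5 melanophore and 3 of 8 erythroid markers were higher as well. Of 7 epidermal markers 4 were higher and 3 lower, and of 6 neural tube markers 1 was higher and 4 lower. The part of these cell types in the rises of mmp9.1, mmp25, adam28.2, adam22 and timp3 and in the falls of mmp8 and mmp13l was not tested. Of the 20 matrix substrates 14 were higher and 2 lower with echinomycin, where 24.6% of all models were higher and 27.0% lower. They included col2a1, the cartilage and notochord collagen (1.29 ± 0.076), and bcan, for the proteoglycan brevican (1.46 ± 0.11), and fn1 fell by 1.14 ± 0.11. Of the 21 AP-1, ETS and inflammatory regulators 9 were higher and 5 lower, with ets2 down by 0.48 ± 0.051 and atf3 up by 1.04 ± 0.17 on the log2 scale. Of 25 shed ligands and receptors 9 were higher, including notch1 (1.20 ± 0.10), and 6 lower, including jag1 (-1.25 ± 0.0743). Of 16 activators, inhibitors and partners 7 were higher and 3 lower, and of 8 partners of ADAM10 and ADAM17 4 were higher and none lower.

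**Figure D5:**
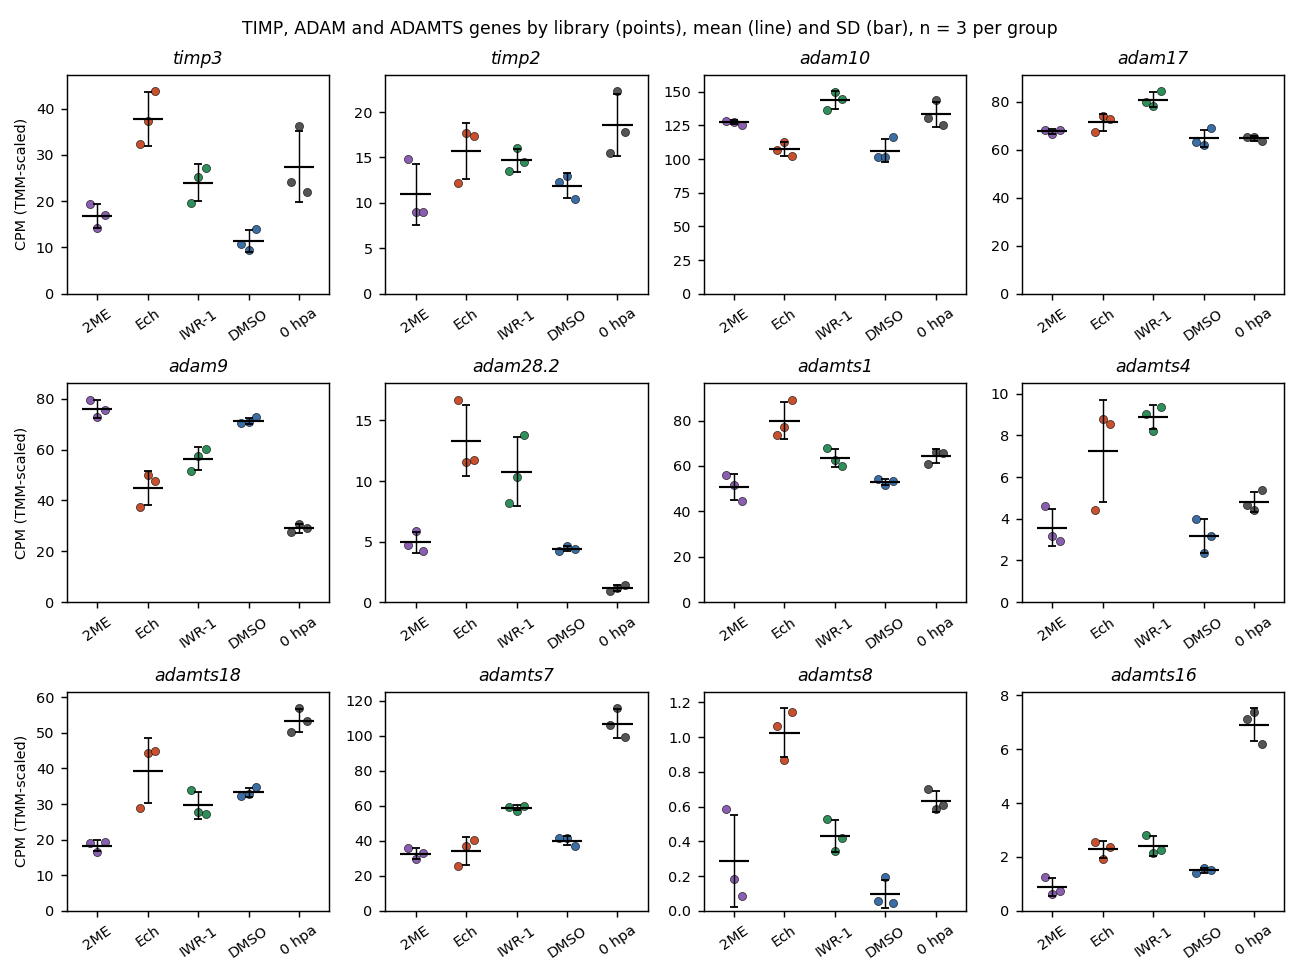
Level (TMM-scaled CPM) of TIMP, ADAM and ADAMTS genes in each library (points), with group mean (line) and SD (bar), n = 3 per group; each panel has its own axis from 0. timp3 is lowest with DMSO and highest with echinomycin, and adam9 is lowest at 0 hpa.

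With IWR-1 the most abundant MMP rose further. mmp1 had 646, 984 and 1105 CPM with IWR-1 and 582, 526 and 487 CPM with DMSO, a log2 ratio of 0.78 ± 0.13 (adjusted p = 0.000166). The 3 IWR-1 libraries spread widely but all lay above the DMSO libraries, and mmp1 held 51.1 ± 4.16% of the summed MMP level with IWR-1 and 35.4 ± 1.04% with DMSO. mmp9.2 was as spread, at 133, 250 and 311 CPM with IWR-1 and 234, 209 and 174 CPM with DMSO, and did not pass (0.17 ± 0.21, adjusted p = 0.540); without IWR-1 replicate 1 it did (0.45, adjusted p = 0.0170). In that library mmp1, mmp9.2, mmp13l and mmp8 were each the lowest of the 3. mmp13l did not pass, at 253, 296 and 364 CPM with IWR-1 and 436, 354 and 403 CPM with DMSO (-0.39 ± 0.16, adjusted p = 0.0572). It passed in 6 of 24 alternatives, among them those without echinomycin replicate 1 (-0.38, 0.0286), echinomycin replicate 2 (-0.39, 0.0204) or IWR-1 replicate 3 (-0.54, 0.0209). mmp8 had a log2 ratio of -0.18 with a 95% interval from -0.67 to 0.32, mmp11 of -0.14 from -0.32 to 0.04 and mmp13 of 0.33 from -0.04 to 0.69.

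mmp14 and mmp3 fell with IWR-1. mmp14 had 207, 228 and 234 CPM with IWR-1 and 325, 324 and 300 CPM with DMSO (-0.51 ± 0.058, adjusted p = 5.10e-06), and mmp3 had 116, 109 and 120 CPM with IWR-1 and 170, 185 and 177 CPM with DMSO (-0.63 ± 0.091, adjusted p = 4.50e-05). In both genes the groups were far apart relative to their spread. mmp19-like.2 fell by 0.51 ± 0.14 (adjusted p = 0.00783) on the log2 scale. Its call was lost in 2 of 25 alternatives, among them that with no scaling factor between libraries (-0.35, adjusted p = 0.0560). mmp28 rose by 0.72 ± 0.11 (adjusted p = 7.69e-05), mmp9.1 by 0.37 ± 0.12 (adjusted p = 0.0193) and mmp16 by 0.47 ± 0.18 (adjusted p = 0.0466). The call of mmp9.1 was lost without DMSO replicate 1 (0.36, adjusted p = 0.0522) or IWR-1 replicate 3 (0.30, 0.0893). That of mmp16 was lost without DMSO replicate 2 or 3, 2ME replicate 3, echinomycin replicate 2 or 3, or IWR-1 replicate 2 or 3, with log2 ratios of 0.38 to 0.47 and adjusted p of 0.0501 to 0.159, with no filter on low counts (0.47, 0.0617) and with DESeq2 (0.49, 0.0567).

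timp3 had 19.6, 25.3 and 27.2 CPM with IWR-1 and 10.7, 9.48 and 14.0 CPM with DMSO (1.07 ± 0.20, adjusted p = 0.000345), and timp2 had 14.7 ± 1.27 CPM and 11.9 ± 1.34 CPM (0.31 ± 0.19, adjusted p = 0.209). Both general sheddases rose: adam10 had 137, 150 and 145 CPM with IWR-1 and 102, 101 and 116 CPM with DMSO (0.43 ± 0.067, adjusted p = 7.71e-05), and adam17 had 79.9, 78.4 and 84.3 CPM with IWR-1 and 63.1, 62.1 and 69.0 CPM with DMSO (0.32 ± 0.056, adjusted p = 0.000229). Each IWR-1 library lay above each DMSO library in these genes. Of 8 partners of ADAM10 and ADAM17, 4 were higher and none lower with IWR-1, where 19.9% of all models were higher and 22.4% lower. The 4 included tspan33 (1.41 ± 0.27) and the iRhom gene rhbdf2 (0.38 ± 0.09). adam28.2 rose by 1.28 ± 0.20 (adjusted p = 8.87e-05), adam28.1 by 0.43 ± 0.085, adam19 by 1.37 ± 0.36 (adjusted p = 0.00606) and adam12 by 1.61 ± 0.45 (adjusted p = 0.00883) on the log2 scale, and adam9 fell by 0.34 ± 0.088 (adjusted p = 0.00559). The fall of adam9 did not pass in 2 of 25 alternatives, among them that with no scaling factor between libraries (-0.17, adjusted p = 0.171).

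Among the 19 ADAMTS genes 8 rose with IWR-1, where 19.9% of all models rose. adamts4 had 9.03, 8.21 and 9.33 CPM with IWR-1 and 3.99, 2.36 and 3.18 CPM with DMSO (1.49 ± 0.24, adjusted p = 0.000124), and adamts7 had 59.5, 57.1 and 59.5 CPM with IWR-1 and 41.5, 41.3 and 37.2 CPM with DMSO (0.55 ± 0.12, adjusted p = 0.00143). In adamts7 the IWR-1 libraries lay between the DMSO libraries and the 0 hpa libraries. adamts10 was the ADAMTS gene that fell, with 34.5, 34.0 and 34.8 CPM with IWR-1 and 45.9, 49.9 and 54.7 CPM with DMSO (-0.55 ± 0.093, adjusted p = 0.000198). adamts1 and adamts16 rose by 0.26 ± 0.084 (adjusted p = 0.0204) and 0.67 ± 0.22 (adjusted p = 0.0233). The call of adamts1 was lost without DMSO replicate 2 (0.25, adjusted p = 0.0603) or IWR-1 replicate 1 (0.21, 0.0847), and that of adamts16 without DMSO replicate 1 (0.64, 0.0624) or IWR-1 replicate 1 (0.53, 0.0953). adamts2 did not pass (0.36 ± 0.15, adjusted p = 0.0549). It passed in 6 of 25 alternatives, among them without 2ME replicate 1 (0.36, adjusted p = 0.0414) and with no scaling factor (0.52, adjusted p = 0.0125). The ADAMTS-like gene adamtsl3, which lacks a protease domain, rose to 1.00 ± 0.509 CPM with IWR-1 against 0.200 ± 0.0573 CPM with DMSO (2.31 ± 0.59, adjusted p = 0.00465). It averaged 0.738 ± 0.358 CPM with echinomycin and 0.571 ± 0.416 CPM with 2ME. Of 4 tested ADAMTS-like genes 2 were higher with IWR-1, 2 with echinomycin and none with 2ME, beside 19.9%, 24.6% and 14.0% of all models. All 12 muscle markers were higher with IWR-1 than with DMSO, as were 5 of 12 leukocyte (1 lower), 5 of 8 endothelial (1 lower) and 4 of 8 erythroid markers. Of 7 epidermal markers 2 were higher and 3 lower, and of 7 notochord markers 2 were higher and 2 lower. Of 6 neural tube markers 1 was higher and 2 lower, and of 5 melanophore markers 1 was higher and 1 lower. The part of these cell types in the rises of adam12, adam19, adam28.2 and adamts4 was not tested.

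Of 20 substrates 9 were higher and 3 lower with IWR-1, where 19.9% of all models were higher and 22.4% lower. The basement membrane collagen genes col4a1 and col4a2, which MMP2 and MMP9 cut in mammals, rose with log2 ratios of 1.23 ± 0.19 and 1.47 ± 0.20. Of 21 AP-1, ETS and inflammatory regulators 8 were higher and 3 lower, with fos at 21.0 CPM with IWR-1 and 156 CPM with DMSO (-2.89 ± 0.23, adjusted p = 1.16e-07). Of 25 shed ligands and receptors 9 were higher and 5 lower, and of 16 activators, inhibitors and partners 7 were higher, with pcsk7 up by 1.02 ± 0.20, and 3 lower.

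The compounds were then compared with each other, in 3 pairs, at the single dose of each, so a difference between compounds is one between these doses. 2ME differed from echinomycin in 28 of 58 members, where 44.1% of all models differed. With 2ME 7 members were higher and 21 lower, against 22.8% and 21.3% of all models. 2ME differed from IWR-1 in 18, where 22.5% of all models differed. Here 3 members were higher and 15 lower with 2ME, against 11.1% and 11.4% of all models. Echinomycin differed from IWR-1 in 26, where 34.8% of all models differed. Here 17 members were higher and 9 lower with echinomycin, against 16.2% and 18.6% of all models. The last split rests on single libraries: it was 8 higher and 9 lower without echinomycin replicate 3, 11 and 9 without echinomycin replicate 2, and 10 and 11 without IWR-1 replicate 1. In the same order, libraries did not overlap in 32, 26 and 28 members and in 54.3%, 40.8% and 46.6% of all models.

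Between 2ME and echinomycin, both aimed at HIF1 by different routes, mmp13l was higher with 2ME by 1.26 ± 0.16 on the log2 scale (adjusted p = 8.52e-06), adam9 by 0.75 ± 0.088 (adjusted p = 3.58e-06), mmp11 by 0.72 ± 0.088 (adjusted p = 5.65e-06), mmp9.2 by 0.63 ± 0.21 (adjusted p = 0.0217) and mmp1 by 0.52 ± 0.13 (adjusted p = 0.00385). adam28.2 was lower with 2ME by 1.43 ± 0.19 (adjusted p = 1.50e-05), mmp25 by 1.43 ± 0.24 (adjusted p = 0.000111), adam22 by 1.40 ± 0.33, adamts16 by 1.36 ± 0.24 and mmp13 by 1.17 ± 0.17 (adjusted p = 3.52e-05). timp3 was lower with 2ME by 1.16 ± 0.18 (adjusted p = 7.98e-05). Thus mmp1, mmp13l, mmp9.2 and mmp11 were lower with echinomycin than with 2ME, and mmp13, mmp25 and timp3 were higher. mmp8, with 4.27 ± 0.296 CPM with 2ME and 4.57 ± 0.950 CPM with echinomycin, was not among the 28, which does not show equal levels. All 12 tested leukocyte markers were lower with 2ME than with echinomycin, and their part in the level of mmp8 was not tested.

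Between 2ME and IWR-1, mmp14 was higher with 2ME by 0.67 ± 0.058 (adjusted p = 6.91e-07), adamts10 by 0.64 ± 0.092 and adam9 by 0.43 ± 0.087 on the log2 scale. adamts16 was lower with 2ME by 1.43 ± 0.24 (adjusted p = 0.000327), adamts4 by 1.30 ± 0.23 (adjusted p = 0.000705), mmp8 by 1.22 ± 0.25 (adjusted p = 0.00256), adam28.2 by 1.12 ± 0.20 and adamts6 by 1.04 ± 0.14. Between echinomycin and IWR-1, mmp1 was lower with echinomycin, 354 ± 7.03 CPM with echinomycin against 912 ± 238 CPM with IWR-1 (-1.37 ± 0.13, adjusted p = 7.60e-07). mmp8 and mmp13l were lower as well, by 1.11 ± 0.25 and 1.08 ± 0.16, adamts7 by 0.78 ± 0.12 and mmp11 by 0.70 ± 0.088. mmp3 was higher with echinomycin by 0.88 ± 0.091 (adjusted p = 1.47e-06), mmp19 by 0.90 ± 0.18, mmp23b by 1.02 ± 0.35, mmp19-like.2 by 1.02 ± 0.14 and adam22 by 1.71 ± 0.34.

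Several members sit side by side in the genome, by gene order in the UCB_Xtro_10.0 reference assembly. mmp9.1 and mmp9.2 are neighbours, as are mmp13l and mmp1, mmp7 and mmp3, adamts15 and adamts8, and adam28.3, adam28.2 and adam28.1. mmp8 follows mmp1 with 2 other protein-coding genes between them. Against DMSO, mmp9.1 rose with echinomycin and mmp9.2 did not pass, and mmp1 rose with IWR-1 and mmp13l did not pass. As a description of pairs chosen with their values known, the TPM ratio of mmp9.1 to mmp9.2 within a library was 1.14, 0.684 and 0.909 with echinomycin, 0.318, 0.388 and 0.427 with DMSO, and 38.3, 85.4 and 15.9 at 0 hpa. The ratio of mmp13 to mmp13l was 0.289, 0.152 and 0.226 with echinomycin, 0.0466, 0.0510 and 0.0323 with DMSO, and 6.13, 14.8 and 3.68 at 0 hpa. mmp13 and mmp13l are not neighbours, as mmp1, mmp8 and mmp20 lie between them. The 0 hpa ratios rest on few counts, 26 of mmp9.2 and 11 of mmp13l over that group. With 2ME these ratios averaged 0.353 ± 0.00645 and 0.0397 ± 0.0117, and with IWR-1 0.478 ± 0.206 and 0.0705 ± 0.00205. In these pairs the gene nearly silent at the cut, mmp9.2 or mmp13l, exceeded its partner with DMSO. Their echinomycin libraries lay between the DMSO and the 0 hpa libraries. The ratio of mmp1 to mmp13l averaged 3.20 ± 0.792 with echinomycin, 1.66 ± 0.172 with DMSO and 80.6 ± 55.0 at 0 hpa. With DMSO mmp13l thus did not exceed its neighbour mmp1. For mmp19 to mmp19-like.2 it was 0.831 ± 0.173, 0.824 ± 0.248 and 0.0855 ± 0.0188, and echinomycin and DMSO libraries overlapped. Whether reads were shared within a pair was not tested. mmp1, mmp13l and mmp9.1 had whole-number counts in all 15 libraries within a tolerance of 1e-06, and mmp9.2 had fractional counts in 3. mmp13 and mmp8 had them in 11 and 12 libraries, and adam9, adam17, adam28.1, mmp11, mmp19, mmp21, mmp23b and mmp25 in all 15.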

How the data were processed

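Per the submitters' processing notes, reads were trimmed with Trim Galore 0.6.5 and quantified with kallisto, and edgeR was used; the genome build is not given in the sources used here. Per the file headers, each library's deposited table gives the estimated count, the length, the effective length and the TPM of 34192 gene models. The authors also deposited a table of CPM values for 15892 models, 48 of them members.

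Estimated counts were rounded to whole numbers, filtered with filterByExpr (minimum 10, total 15) and tested over 18823 models with edgeR 4.0.16 in R 4.3.3, using TMM factors, 1 fit of all 15 libraries and the quasi-likelihood F test. The p-values were adjusted by Benjamini and Hochberg over all tested models and called under 0.05, and the SE is the log2 ratio over the square root of F. The test was checked on simulated data for DMSO against 0 hpa: in 18496 models all 200 changed ones were recovered, and 4.31% of the calls were false. The planted changes were 2-fold or 4-fold either way, in models above a minimum level, and all other models were left unchanged. Recovery of smaller changes or of models at low counts was not checked, nor was a setting with as many changed models as in the data. Depth and its precision are given as totals per library, and counting intervals cover counting error only.

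Members were named with values where they were the 10 largest called rises or falls without overlap and with at least 2 CPM, the TIMPs, the 10 most abundant MMPs, 11 ADAM and ADAMTS genes listed by name, or the 5 largest differences each way between compounds. Other members named in a comparison were chosen after their values were seen. They enter the counts with a library left out, but their single calls in those fits are not given. The members and lists were chosen with earlier results of these data known. Alternatives were other scaling factors and filters, DESeq2 1.42.0, limma 3.58.1 on log2(CPM + 1) of the deposited CPM, a length offset, the 2 groups alone, a replicate block, a threshold of 0.01 and leaving out each library. Gene symbols came from the files, and 61 members matched the UCB_Xtro_10.0 reference table, which was used for names and gene order.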

Additional observations from a re-analysis of the deposited data

How the results depend on the processing

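For DMSO against 0 hpa the counts of 15 higher and 32 lower stayed between 14 and 16 and between 29 and 33 with a library left out. Under the other alternatives they ran from 12 to 16 and from 26 to 34. The 12 and 26 were with limma, which tested 48 members in place of 58. The fit with no filter on low counts tested 61 and DESeq2 63. The calls of the 29 members picked by the naming rule held in every alternative that tested them. The compound counts moved more. With an adjusted p under 0.01, 2 members were higher with 2ME, 14 with echinomycin and 12 with IWR-1, and 16 differed between echinomycin and IWR-1. With no scaling factor 8 were higher with 2ME and 3 lower with IWR-1, and the median log2 ratio of all models shifted to 0.119 with 2ME, 0.161 with echinomycin and 0.144 with IWR-1. With limma on the deposited CPM, of 48 members tested, 7 were higher and 5 lower with 2ME, 3 lower with echinomycin and 3 lower with IWR-1. With a library left out, 2 to 5 members were higher with 2ME, 16 to 28 with echinomycin and 15 to 23 with IWR-1. Between echinomycin and IWR-1, 17 to 28 differed. Without echinomycin replicate 3, 16 were higher and 8 lower with echinomycin, and without DMSO replicate 1, 15 were higher and 5 lower with IWR-1. The split of 4 higher and 8 lower with 2ME (33.3% higher) became 57.1% higher with no scaling factor and 58.3% with limma. The share of all models called was taken only for the reported fit. A change in a member count under an alternative therefore cannot be told from a change over all models.

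The ratios whose sign turned were not called in the reported fit, and the cause was not tested. With no scaling factor adam17 (DMSO against 0 hpa) was 0.013, and so with no filter on low counts. With 2ME, no scaling factor gave 0.072 for adamts1, 0.069 for mmp1, 0.018 for mmp11 and 0.028 for timp2, and with IWR-1 0.089 for adamts3, 0.020 for mmp11 and 0.124 for mmp2. Limma gave 0.011 for adam17 (DMSO against 0 hpa), 0.065 for adamts1, 0.073 for mmp1 and 0.018 for mmp11 with 2ME, and 0.077 for adamts3, 0.021 for mmp11 and 0.126 for mmp2 with IWR-1; upper-quartile factors gave mmp2 0.006. With a library left out the log2 ratio ran from -0.069 to 0.011 for adam17 and -0.251 to 0.166 for adamts9 (DMSO against 0 hpa). With 2ME it ran from -0.144 to 0.019 for adamts1, -0.102 to 0.140 for adamts2, -0.063 to 0.266 for adamts3, -0.043 to 0.381 for adamts4, -0.180 to 0.548 for adamts5, -0.115 to 0.014 for mmp1 and -0.399 to 0.012 for timp2. With echinomycin it ran from -0.026 to 0.102 for adam10 and -0.004 to 0.089 for mmp14. With IWR-1 it ran from -0.146 to 0.034 for adamts3, -0.454 to 0.023 for adamts5, -0.138 to 0.155 for adamts9, -0.119 to 0.049 for mmp2 and -0.101 to 0.450 for mmp9.2.

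The replicate numbers did not pair the libraries: deviations of same-numbered libraries correlated at -0.144 to 0.126 over 30 pairs, and 4 of 15 libraries were closest to their own number. With the replicate block 14 members were higher and 32 lower with DMSO than at 0 hpa, 3 and 8 with 2ME, 25 and 6 with echinomycin and 19 and 6 with IWR-1, and 28, 18 and 25 differed between the compound pairs. Under the block mmp14 with 2ME (0.16, adjusted p = 0.0558) and mmp16 with IWR-1 (0.47, 0.0569) lost their calls, and mmp13l with IWR-1 passed (-0.40, 0.0481). Depth limits the members under about 1 CPM, such as adam12 and adamts8, whose SE was 0.40 and 0.64 on the log2 scale for DMSO against 0 hpa.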
